A study of Mus musculus with 16 samples.

Results

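The complement and acute phase proteins measured here are 37 mouse genes chosen by symbol from the 18111 gene symbols of the deposited table. All 37 symbols were in the table, and 36 could be tied to a probe. Orm3, an acid glycoprotein gene, stood at the lowest value on all 16 arrays, so no probe could be singled out for it. The members were taken in 8 roles: initiation of the classical and lectin pathways, C3 with the alternative pathway and its control, the terminal pathway, serum amyloids with a pentraxin, iron and heme proteins, acid glycoproteins with a lipid binding protein, protease inhibitors, and the interleukin 6 (IL6) signal.

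Complement is a chain of plasma proteases and binding proteins in which the classical, lectin and alternative pathways meet at the cleavage of C3, and the terminal components then assemble a pore in the target membrane. The liver makes most of these proteins. Acute phase proteins are plasma proteins that the liver releases in larger amounts during inflammation. IL6 drives many of them through its receptor and the factor STAT3, and IL1 acts through NF-kappaB and C/EBP factors.

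The study asked what NAD depletion does to gene expression. It treated primary islets and primary hepatocytes of wild type B6 mice in culture with FK866, which inhibits NAMPT, an enzyme of NAD synthesis from nicotinamide. The groups were islets given 10 nM FK866, islets given 0.1% DMSO as control, hepatocytes given 200 nM FK866, and hepatocytes given 0.1% DMSO as control, each for 48 h. Each group had 4 Illumina bead arrays of biotinylated cRNA. The labels leave unsaid whether the 4 came from separate animals or cultures, so every p-value here measures array-to-array spread that may be technical. Levels are normalized log2 signals, and differences between groups are differences of log2 signals.

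Between 11018 and 11846 of 25697 probes had a detection p under 0.05 on each array. Both islet arrays numbered 2 were unlike the rest. Their median signal before normalization was 18.05 with FK866 and 15.43 in the control, against 26.94 to 33.05 on the other islet arrays. Over the genes tested, their median correlation with the other arrays of islets was 0.937 with FK866 and 0.872 in the control, against 0.980 to 0.992 on the others. Their normalized mean over 12 fibroblast and stellate cell markers was also the highest, at 6.45 with FK866 and 7.09 in the control. The other islet arrays had 5.71 to 6.18. Before normalization neither was the highest. The sums over these markers were 999 against 1170 on array 4 with FK866, and 1419 against 1749 on array 3 in the control. The tissue labels were checked against markers. Of 12 hepatocyte markers, 2 were detected on any islet array and 9 on any hepatocyte array. Alb, the albumin gene, was detected on no array of either tissue, while Apoa1 and Mup1 were detected on all 8 hepatocyte arrays and on none of the islet arrays. All 10 beta cell markers were detected on islet arrays, and 4 of them, Iapp, Ins1, Mafa and Slc2a2, on hepatocyte arrays too.

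Fewer members were detected in islets than in hepatocytes. In islets, 9 members were detected on all 8 arrays: C2, C3, Cfi, C8b, C8g, Lcn2, Cp, Il6ra and Socs3. C4b and Hp were detected on 6 islet arrays, Hamp and Serpina3n on 5, Apcs on 3, and Masp2, C8a and Saa3 on 1 each. The other 19 members with a probe were detected on no islet array. In hepatocytes, 34 members were detected on all 8 arrays. The exceptions were Il6ra, the receptor chain that binds IL6, with 0 of 4 FK866-treated and 2 of 4 control arrays, and Steap4, a metalloreductase, which was detected on none of the 16 arrays.

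**Figure D1:**
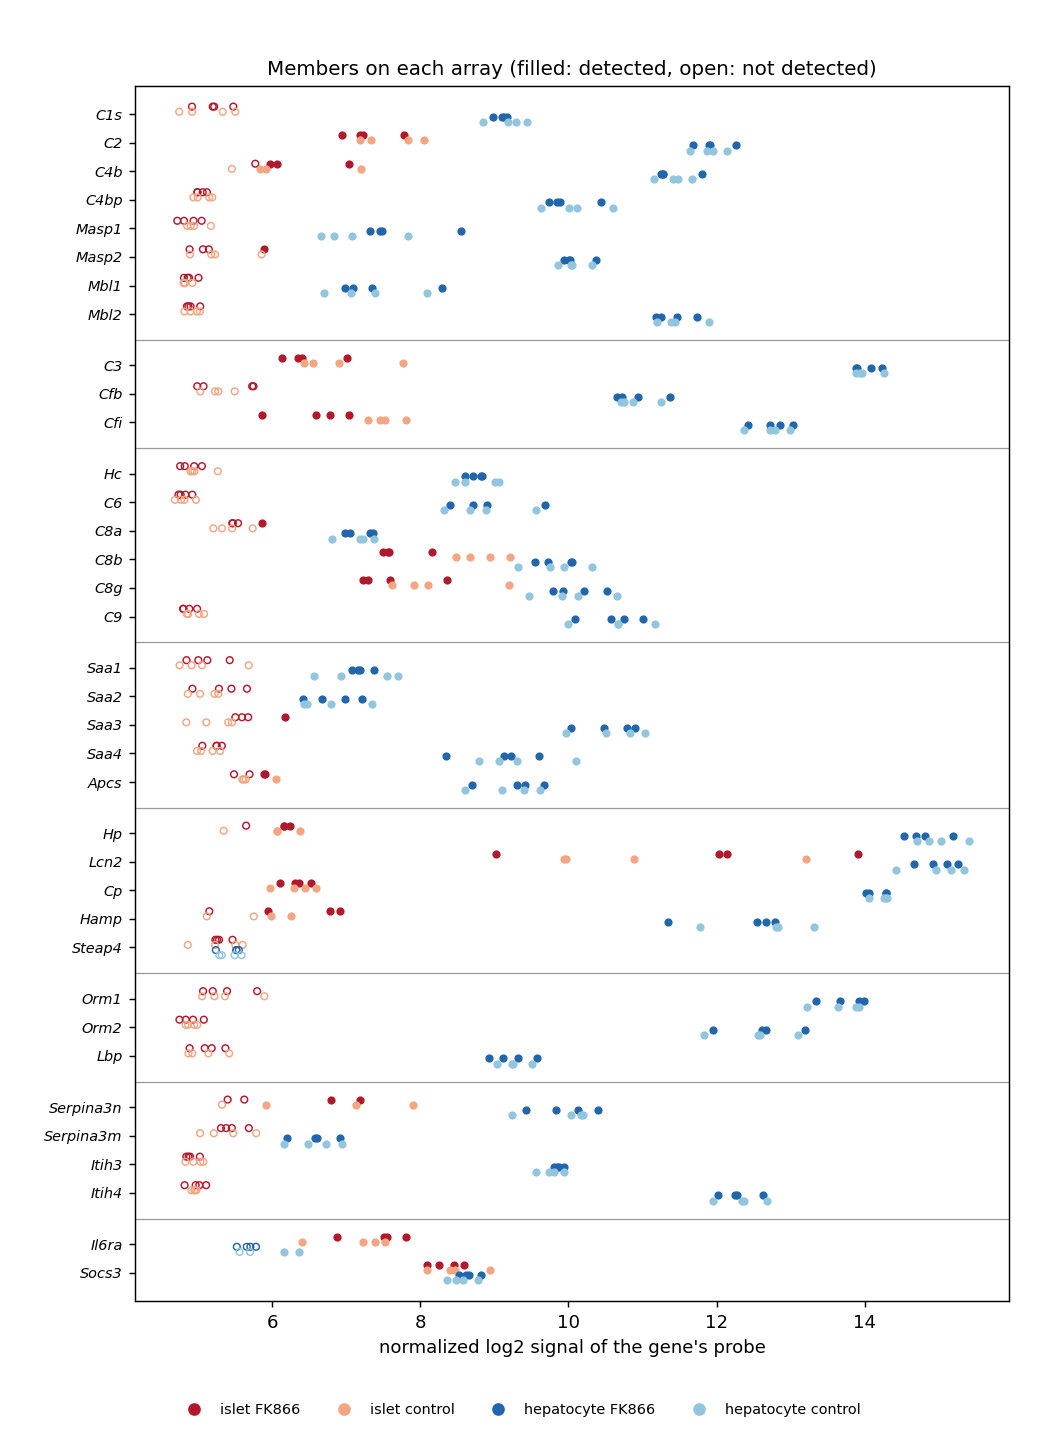
Normalized log2 signal (x axis) of the 36 members with a probe, 1 point per array, coloured by group and grouped by role; filled points were detected at p under 0.05 and open points were not. Most members sit at the undetected level in islets and well above it in hepatocytes, while Il6ra is the reverse and the Socs3 points of the tissues overlap.

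In control cells, most members were lower in islets than in hepatocytes, in every role but the IL6 signal. A gene was tested when its probe was detected on at least 4 of the 16 arrays, and limma's moderated test, adjusted by Benjamini-Hochberg at 0.05, was run on 10059 genes, of which 66.1% were called and 31% were called lower in islets. Of the 37 members, 35 were tested, 33 were called lower in islets and 1, Il6ra, was called higher. Socs3, a feedback inhibitor of cytokine signals, was not called. For 22 of the 33 the count has little to say, because these genes passed the detection filter through the hepatocyte arrays alone and so had to differ. Il6ra passed through the islet arrays alone, and the same limit holds for it. Of the 12 members detected on at least 4 arrays of each tissue, 11 were called lower in islets and none higher. The median difference of these 12 was -4.75, against 0.04 over all 7514 genes detected in both tissues, of which 29.1% were called lower and 31.9% higher. Fewer cells that make a protein and less of its RNA per cell cannot be told apart in such bulk samples.

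In FK866-treated cells the same contrast again called 33 members lower in islets and Il6ra higher, where 63% of all genes were called and 29.2% were called lower. Both contrasts came from 1 fit over all 16 arrays and share its normalization, filter and variance, so the second is no independent repeat. Of the 12 members detected in both tissues, 11 were again called lower, with a median difference of -4.92, against 26.8% of the 7514 such genes. The islet and hepatocyte arrays did not overlap for 11 of the 12 under either treatment, against 60.9% of such genes in FK866-treated cells and 54.9% in control cells. Over all genes tested these shares were 65.2% and 59.8%. With the replicate number as a block, 34 members were called in control cells, where 69.2% of all genes were. The numbers did not pair across tissues, so this block has little meaning for a tissue contrast. Without both islet arrays numbered 2, the control contrast still called 33 members lower, and the FK866 contrast called 34.

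**Figure D2:**
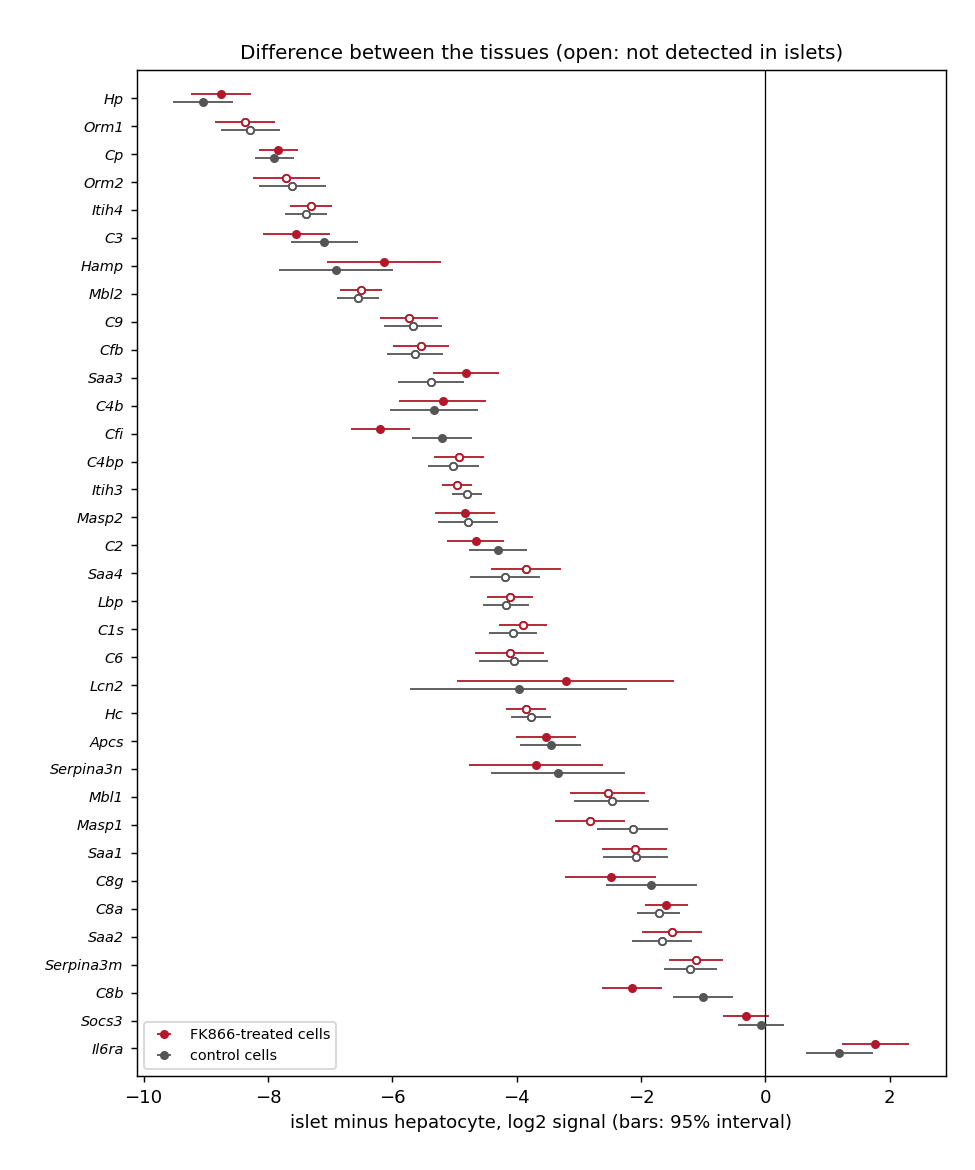
Islet minus hepatocyte difference of log2 signal (x axis) for the 35 members tested, in FK866-treated and in control cells; bars are 95% intervals and open points mark members detected on no islet array of that treatment, whose true difference is at least partly hidden below detection. The differences in control cells run from -9.04 for Hp to 1.19 for Il6ra, and the intervals of Socs3 include 0 under both treatments.

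The sequence just upstream of the start of some of these genes is shown because nearly all the members differed between the tissues in 1 direction, and because Socs3 did not. RefSeq sequences of GRCm38.p6 held 29 upstream windows for 27 of the 37 members, since C8g and Cp have 2 starts each. The 250 bases before the start were searched on both strands for the STAT letters TTCNNNGAA and the C/EBP letters TTGCNNAA. The 2 motifs did not overlap in the windows printed. The STAT letters occurred in 7 of 29 member windows (24.1%), against 7.02% of all 32851 windows: Apcs, C8a, Hamp, Itih4, Masp2, Socs3 and Steap4. The C/EBP letters occurred in 11 of 29 (37.9%), against 9.56% of all windows: C3, C9, Cp, Lcn2, Orm2, Orm3, Saa1, Saa2, Saa3, Saa4 and Steap4. The Saa genes, and Orm2 and Orm3, are near copies of each other, so these are not independent windows. Capitals below mark the STAT letters in Hamp, Itih4 and Socs3 and the C/EBP letters in C3 and Saa3. C8b, which had the lowest p among members under FK866 in islets, has neither motif. A match is a run of letters and not a site shown to be bound. The windows lie at chr7:30944030-30944279 (minus strand) for Hamp, chr14:30886226-30886475 (plus strand) for Itih4, chr11:117969367-117969616 (minus strand) for Socs3, chr17:57228137-57228386 (minus strand) for C3, chr7:46715677-46715926 (minus strand) for Saa3 and chr4:104766067-104766316 (plus strand) for C8b, and are printed 5′ to 3′ along the gene.
Hamp: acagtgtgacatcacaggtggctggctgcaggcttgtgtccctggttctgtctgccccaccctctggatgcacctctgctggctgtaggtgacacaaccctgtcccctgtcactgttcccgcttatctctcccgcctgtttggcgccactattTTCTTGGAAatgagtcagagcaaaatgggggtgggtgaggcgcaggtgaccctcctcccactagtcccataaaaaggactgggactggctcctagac
Itih4: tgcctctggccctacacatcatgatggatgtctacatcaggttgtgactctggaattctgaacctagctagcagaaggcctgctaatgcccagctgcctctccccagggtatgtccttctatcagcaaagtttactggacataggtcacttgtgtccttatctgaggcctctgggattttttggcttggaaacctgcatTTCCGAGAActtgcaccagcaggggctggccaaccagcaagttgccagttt
Socs3: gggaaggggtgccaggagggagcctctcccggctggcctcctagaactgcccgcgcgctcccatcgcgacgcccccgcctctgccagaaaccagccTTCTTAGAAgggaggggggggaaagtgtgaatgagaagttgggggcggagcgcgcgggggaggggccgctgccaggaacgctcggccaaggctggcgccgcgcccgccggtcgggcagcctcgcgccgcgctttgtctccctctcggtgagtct
C3: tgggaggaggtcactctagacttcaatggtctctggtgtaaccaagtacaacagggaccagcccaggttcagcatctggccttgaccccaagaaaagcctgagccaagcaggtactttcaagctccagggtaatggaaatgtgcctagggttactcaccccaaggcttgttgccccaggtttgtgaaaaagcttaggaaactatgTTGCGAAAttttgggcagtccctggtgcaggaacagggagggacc
Saa3: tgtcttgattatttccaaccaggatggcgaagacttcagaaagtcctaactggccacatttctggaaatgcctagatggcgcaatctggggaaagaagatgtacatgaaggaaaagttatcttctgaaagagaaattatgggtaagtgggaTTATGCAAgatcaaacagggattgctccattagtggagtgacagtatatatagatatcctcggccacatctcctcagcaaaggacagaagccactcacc
C8b: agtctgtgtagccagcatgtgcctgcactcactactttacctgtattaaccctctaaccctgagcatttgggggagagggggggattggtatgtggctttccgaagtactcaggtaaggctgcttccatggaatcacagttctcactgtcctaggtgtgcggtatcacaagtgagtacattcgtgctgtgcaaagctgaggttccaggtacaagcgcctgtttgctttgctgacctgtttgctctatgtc

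The 8 members grouped under initiation of the classical and lectin pathways were all lower in islets than in hepatocytes. This grouping includes C4bp, which does not itself start either pathway. Mbl2, a mannose binding lectin that recognises microbial sugars, was detected on no islet array, with log2 signals of 4.82 to 5.03, and had 11.74, 11.18, 11.25 and 11.47 in FK866-treated hepatocytes and 11.90, 11.20, 11.44 and 11.38 in control hepatocytes. Where a gene was detected on no islet control array, its difference is given as a lower bound against the detection level. Mbl2 was at least 49.1-fold lower in control islets. C4bp, which helps to break down C4b, had 4.94 to 5.19 on islet arrays, all undetected, against 10.43, 9.73, 9.84 and 9.89 in FK866-treated hepatocytes and 10.60, 9.62, 10.12 and 10.00 in control hepatocytes. It was at least 18.7-fold lower in control islets.

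C4b, a complement component that binds covalently to targets, had 5.98, 7.04, 5.77 and 6.07 in FK866-treated islets and 5.92, 7.21, 5.83 and 5.46 in control islets, with 1 array of each undetected. In hepatocytes its signals were 11.80, 11.28, 11.26 and 11.28 in FK866-treated hepatocytes and 11.67, 11.16, 11.48 and 11.42 in control hepatocytes. The array numbered 2 was the highest islet array in both treatments, and no islet array came near the hepatocyte range. Its control difference was -5.33 (SE 0.33). C2, the protease that joins C4b to cleave C3, had 7.19, 7.77, 6.94 and 7.22 in FK866-treated islets and 7.33, 8.04, 7.19 and 7.84 in control islets. Its hepatocyte signals were 12.26, 11.68, 11.90 and 11.91 in FK866-treated hepatocytes and 12.14, 11.64, 11.95 and 11.87 in control hepatocytes, a control difference of -4.30 (SE 0.22), with the groups well apart. Of the other members of this role, C1s and Masp2, proteases of the classical and lectin pathways, were at least 10-fold and 18.4-fold lower in control islets. Mbl1, the other mannose binding lectin, and the protease Masp1 were at least 2.74-fold and 2.36-fold lower.

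C3, the protein on which all pathways meet, was detected in islets but lower there. It had 6.14, 7.01, 6.40 and 6.35 in FK866-treated islets and 6.55, 7.77, 6.91 and 6.43 in control islets. The arrays numbered 2 were the highest in both treatments after normalization but not before it. Their unnormalized signals were 66.8 against 80.2 on array 3 with FK866, and 82.5 against 141.9 on array 3 in the control. In hepatocytes C3 had 14.23, 13.89, 13.88 and 14.08 in FK866-treated hepatocytes and 14.26, 13.94, 13.87 and 13.96 in control hepatocytes. The control difference was -7.09 (SE 0.25), with a limma adjusted p of 6.95e-13. Cfi, the protease that inactivates C3b and C4b, had 7.03, 5.87, 6.59 and 6.78 in FK866-treated islets and 7.81, 7.29, 7.53 and 7.46 in control islets, against 13.04, 12.42, 12.72 and 12.86 in FK866-treated hepatocytes and 12.98, 12.37, 12.79 and 12.72 in control hepatocytes. The difference was -5.20 (SE 0.23) in control cells and -6.19 (SE 0.23) in FK866-treated cells. Cfb, the protease subunit of the alternative pathway, was undetected on all islet arrays (4.99 to 5.75), against 11.37, 10.65, 10.94 and 10.72 in FK866-treated hepatocytes and 11.25, 10.71, 10.75 and 10.87 in control hepatocytes. It was at least 32.7-fold lower in control islets.

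In the terminal pathway, C9, C6 and Hc were undetected on every islet array. C9, which polymerises into the pore, was undetected in islets (4.80 to 5.08) and had 10.57, 10.09, 11.01 and 10.75 in FK866-treated hepatocytes and 10.67, 9.99, 11.16 and 10.66 in control hepatocytes, at least 27.1-fold lower in control islets. C6 (4.69 to 4.97 in islets, all undetected) had 9.68, 8.40, 8.71 and 8.90 in FK866-treated hepatocytes and 9.57, 8.32, 8.67 and 8.88 in control hepatocytes. Hc, the gene of C5, whose cleavage starts the terminal pathway, had 4.76 to 5.27 in islets, all undetected, and 8.82, 8.60, 8.84 and 8.71 in FK866-treated hepatocytes and 9.06, 8.47, 9.01 and 8.60 in control hepatocytes. C6 and Hc were at least 7.99-fold and 7.58-fold lower in control islets. All of C9, C6 and Hc passed the detection filter through hepatocytes alone and so had to differ.

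Of the chains of C8, 2 were detected on all 16 arrays. C8b, the beta chain, had 7.58, 8.16, 7.56 and 7.49 in FK866-treated islets and 8.94, 9.21, 8.67 and 8.48 in control islets. In hepatocytes it had 10.04, 9.55, 10.05 and 9.72 in FK866-treated hepatocytes and 9.94, 9.31, 10.31 and 9.75 in control hepatocytes. The control difference, -1.0 (SE 0.23) with a limma adjusted p of 0.00104, was the smallest among the 11 members called lower that were detected in both tissues. C8g, the gamma chain, a lipocalin, had 7.22, 8.37, 7.30 and 7.60 in FK866-treated islets and 8.11, 9.19, 7.61 and 7.91 in control islets. The array numbered 2 was the highest in each treatment, though before normalization control array 2 had 259 against 270 on control array 1. The C8g hepatocyte signals were 10.21, 9.79, 10.52 and 9.92 in FK866-treated hepatocytes and 10.12, 9.47, 10.66 and 9.91 in control hepatocytes, a control difference of -1.83 (SE 0.34). C8a, the alpha chain, was detected on 1 islet array, with FK866, and was at least 2.44-fold lower in control islets. C8g overlaps the gene Fbxw5 in the annotation, C8a overlaps Fyb2, Masp2 overlaps Tardbp, Masp1 overlaps Rtp4 and Cp overlaps Hps3, and the probes' sequences were not used here.

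The serum amyloids and the pentraxin Apcs were near or below detection in islets. Saa3, an amyloid gene also induced outside the liver, was detected on 1 islet array, the FK866 array numbered 2. It had 5.50, 6.17, 5.59 and 5.68 in FK866-treated islets and 5.11, 4.84, 5.46 and 5.41 in control islets, against 10.78, 10.03, 10.48 and 10.90 in FK866-treated hepatocytes and 10.83, 9.97, 10.50 and 11.03 in control hepatocytes, at least 26.4-fold lower in control islets. Saa4, a constitutive serum amyloid, was undetected in islets (4.99 to 5.32) and had 9.60, 8.34, 9.12 and 9.23 in FK866-treated hepatocytes and 10.11, 8.80, 9.06 and 9.31 in control hepatocytes, at least 11-fold lower. Apcs, serum amyloid P, an acute phase protein in mice, had 5.90, 5.49, 5.70 and 5.89 in FK866-treated islets and 5.64, 5.62, 5.60 and 6.05 in control islets, with 2 FK866 arrays and 1 control array detected. Its hepatocyte signals were 9.67, 8.69, 9.31 and 9.41 in FK866-treated hepatocytes and 9.61, 8.60, 9.11 and 9.40 in control hepatocytes, a control difference of -3.45 (SE 0.23). Saa1 and Saa2, the major inducible amyloids, were at least 2.51-fold and 1.86-fold lower in control islets. These amyloids are near copies and may share probe signal.

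Of the members detected in both tissues, Hp in the group of iron and heme proteins had the largest difference. Hp, haptoglobin, which binds free hemoglobin, had 5.65, 6.16, 6.24 and 6.16 in FK866-treated islets and 6.06, 6.38, 5.35 and 6.06 in control islets, with 1 array of each treatment undetected. It had 15.19, 14.52, 14.69 and 14.81 in FK866-treated hepatocytes and 15.41, 14.71, 14.86 and 15.02 in control hepatocytes. The control difference was -9.04 (SE 0.23). Hp has 3 probes, and the other 2 were detected on all 8 hepatocyte arrays and on no islet array. Cp, ceruloplasmin, a copper ferroxidase, was detected on every islet array at 6.10, 6.31, 6.36 and 6.53 in FK866-treated islets and 5.97, 6.59, 6.29 and 6.44 in control islets. In hepatocytes it had 14.28, 14.02, 14.05 and 14.28 in FK866-treated hepatocytes and 14.30, 14.06, 14.28 and 14.26 in control hepatocytes, a control difference of -7.90 (SE 0.15). Hamp, hepcidin, the hormone that blocks iron export, had 6.78, 5.15, 5.95 and 6.92 in FK866-treated islets and 5.99, 5.12, 5.75 and 6.25 in control islets, with 1 FK866 and 2 control arrays undetected. Its hepatocyte signals were 12.79, 11.34, 12.67 and 12.54 in FK866-treated hepatocytes and 13.31, 11.78, 12.80 and 12.83 in control hepatocytes, with the array numbered 2 the lowest of each hepatocyte group, and its control difference was -6.90 (SE 0.43).

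Lcn2, lipocalin 2, which binds bacterial siderophores, varied most between islet arrays. It had 12.04, 12.14, 9.02 and 13.91 in FK866-treated islets and 9.94, 10.89, 9.97 and 13.20 in control islets. In hepatocytes it had 15.11, 14.66, 14.92 and 15.25 in FK866-treated hepatocytes and 15.16, 14.42, 14.96 and 15.33 in control hepatocytes. The islet range was 4.89 log2 units with FK866 and 3.26 in the control, against 0.593 and 0.91 in hepatocytes. The array numbered 4 was the highest of each islet group. Every islet array was still below every hepatocyte array, a control difference of -3.97 (SE 0.82) with a limma adjusted p of 0.0005. Lcn2 is abundant in neutrophils. Of 5 neutrophil markers with a probe, none was detected on an FK866-treated islet array and 1, Ngp, was detected on 1 control islet array. The part of neutrophils in the spread of Lcn2 was not tested.

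Orm1 and Orm2, the acid glycoproteins that bind drugs and lipids, were undetected on every islet array. Orm1 had 5.06 to 5.90 in islets and 13.98, 13.34, 13.93 and 13.67 in FK866-treated hepatocytes and 13.92, 13.22, 13.89 and 13.64 in control hepatocytes, at least 224-fold lower in control islets. Orm2 had 4.75 to 5.08 in islets and 12.62, 11.95, 13.19 and 12.66 in FK866-treated hepatocytes and 12.56, 11.82, 13.09 and 12.59 in control hepatocytes, at least 101-fold lower. Lbp, which carries lipopolysaccharide, had 4.87 to 5.42 in islets and 9.58, 8.93, 9.12 and 9.32 in FK866-treated hepatocytes and 9.51, 9.03, 9.25 and 9.24 in control hepatocytes, at least 10.5-fold lower. All 3 passed the detection filter through hepatocytes alone and so had to differ. Orm1 and Orm2 are close copies that may share probe signal.

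Of the protease inhibitors, Itih4, an inter-alpha-trypsin inhibitor heavy chain, was undetected in islets (4.82 to 5.11) and had 12.62, 12.02, 12.27 and 12.25 in FK866-treated hepatocytes and 12.68, 11.95, 12.34 and 12.37 in control hepatocytes, at least 88.8-fold lower in control islets. Itih3, a related heavy chain, had 4.83 to 5.07 in islets, all undetected, and 9.94, 9.80, 9.87 and 9.85 in FK866-treated hepatocytes and 9.81, 9.56, 9.94 and 9.73 in control hepatocytes, at least 14.9-fold lower. Serpina3n, a serpin induced in inflammation, was again uneven in islets, at 5.62, 6.80, 5.40 and 7.19 in FK866-treated islets and 5.32, 7.91, 5.92 and 7.13 in control islets. In hepatocytes it had 10.40, 9.43, 9.83 and 10.13 in FK866-treated hepatocytes and 10.17, 9.23, 10.04 and 10.20 in control hepatocytes. The control difference was -3.34 (SE 0.51), and the islet arrays numbered 2 and 4 were the high ones under both treatments. The related serpin Serpina3m was at least 1.65-fold lower in control islets, where it was undetected.

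The IL6 signal genes did not follow the secreted proteins. Il6ra had 7.52, 6.87, 7.81 and 7.55 in FK866-treated islets and 7.38, 6.40, 7.53 and 7.23 in control islets, all detected, against 5.71, 5.52, 5.78 and 5.66 in FK866-treated hepatocytes and 5.70, 6.36, 6.16 and 5.56 in control hepatocytes. Its signal in control cells was higher in islets by 1.19 (SE 0.25), with 2 of the 4 hepatocyte arrays undetected, and in FK866-treated cells it was at least 2.77-fold higher. It passed the detection filter through islets alone, so its test is not read as support. Socs3 had 8.26, 8.46, 8.08 and 8.59 in FK866-treated islets and 8.47, 8.93, 8.09 and 8.40 in control islets, against 8.82, 8.66, 8.52 and 8.62 in FK866-treated hepatocytes and 8.78, 8.36, 8.48 and 8.57 in control hepatocytes. The tissues' arrays overlapped in control cells. The Socs3 difference was -0.08 (SE 0.17) in control cells, with an interval of -0.44 to 0.29, and -0.31 (SE 0.17) in FK866-treated cells, with limma adjusted p of 0.708 and 0.138.

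FK866 at 10 nM in islets left no member past the threshold in the unpaired fit. Of 8911 genes tested, 0 were called (0%), 119 had an unadjusted p under 0.05 (1.34%), and of the 13 members tested 2 had one: C8b and Cfi. The median change of the 13 was -0.12, against 0.00 over all genes tested. Arrays of the same number tended to deviate together from their group means, so the numbers were taken as pairs, which the labels do not state. In islets this was not clear for every array. FK866 array 3 correlated at 0.532 with control array 3 but at 0.671 with control array 4. A fit that blocks on the number, and so rests on this pairing, is given beside the unpaired one. The blocked fit called 4 genes (0.0449%), with C8b among them, and 1029 genes (11.5%) and 7 of the 13 members had an unadjusted p under 0.05.

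C8b was lower with FK866 in every pair of islet arrays. The FK866-treated islets had 7.58, 8.16, 7.56 and 7.49 and the control islets 8.94, 9.21, 8.67 and 8.48, with no overlap. The changes within pairs were -1.37, -1.04, -1.10 and -0.99. The mean change was -1.13 (SE 0.23), with a 95% interval of -1.65 to -0.60 and a limma adjusted p of 1 unpaired and 0.0466 with the pairs as a block. Without the pair numbered 2 the change was -1.15, with an adjusted p of 0.119 in the block fit, and leaving out any other pair also ended the call, with adjusted p up to 0.283.

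Cfi was the other member whose islet groups did not overlap, which held for 1.67% of all genes. The FK866-treated islets had 7.03, 5.87, 6.59 and 6.78 and the control islets 7.81, 7.29, 7.53 and 7.46. Within pairs it changed by -0.78, -1.42, -0.94 and -0.68, the largest of them in the pair numbered 2. The mean change was -0.95 (SE 0.27), with limma adjusted p of 1 unpaired and 0.0989 with the block. Neither value passed the threshold.

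C8g, C3 and C2 were also lower with FK866 in all 4 islet pairs, and their groups overlapped. The C8g pairs changed by -0.89, -0.83, -0.31 and -0.32, a mean of -0.59 (SE 0.39). The C3 pairs changed by -0.41, -0.76, -0.51 and -0.08, a mean of -0.44 (SE 0.33), and the C2 pairs by -0.14, -0.27, -0.26 and -0.61, a mean of -0.32 (SE 0.26). None passed the test in either fit, with the lowest adjusted p at 0.257 for C8g with the block. Il6ra and Hamp were higher in all 4 pairs. Il6ra changed by 0.13, 0.47, 0.28 and 0.32, a mean of 0.30 (SE 0.30), and Hamp by 0.79, 0.03, 0.19 and 0.67, a mean of 0.42 (SE 0.42), also short of the threshold. In all, 5 of the 13 members were lower in all 4 pairs and 2 were higher, against 12% and 9.24% of all genes tested.

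The remaining islet members moved both ways between pairs. Lcn2 changed by 2.09, 1.25, -0.94 and 0.70, a mean of 0.78 (SE 1.07) with an interval of -1.67 to 3.22, so that a change of several-fold in either direction was not detectable with these arrays. Serpina3n averaged -0.32 (SE 0.63) and C4b 0.11 (SE 0.42). Hp averaged 0.09 (SE 0.26), Socs3 -0.12 (SE 0.22) and Cp 0.00 (SE 0.19). The Cp interval, -0.44 to 0.44, was the only 1 of the 13 that lay within 0.5 log2 units of 0.

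**Figure D3:**
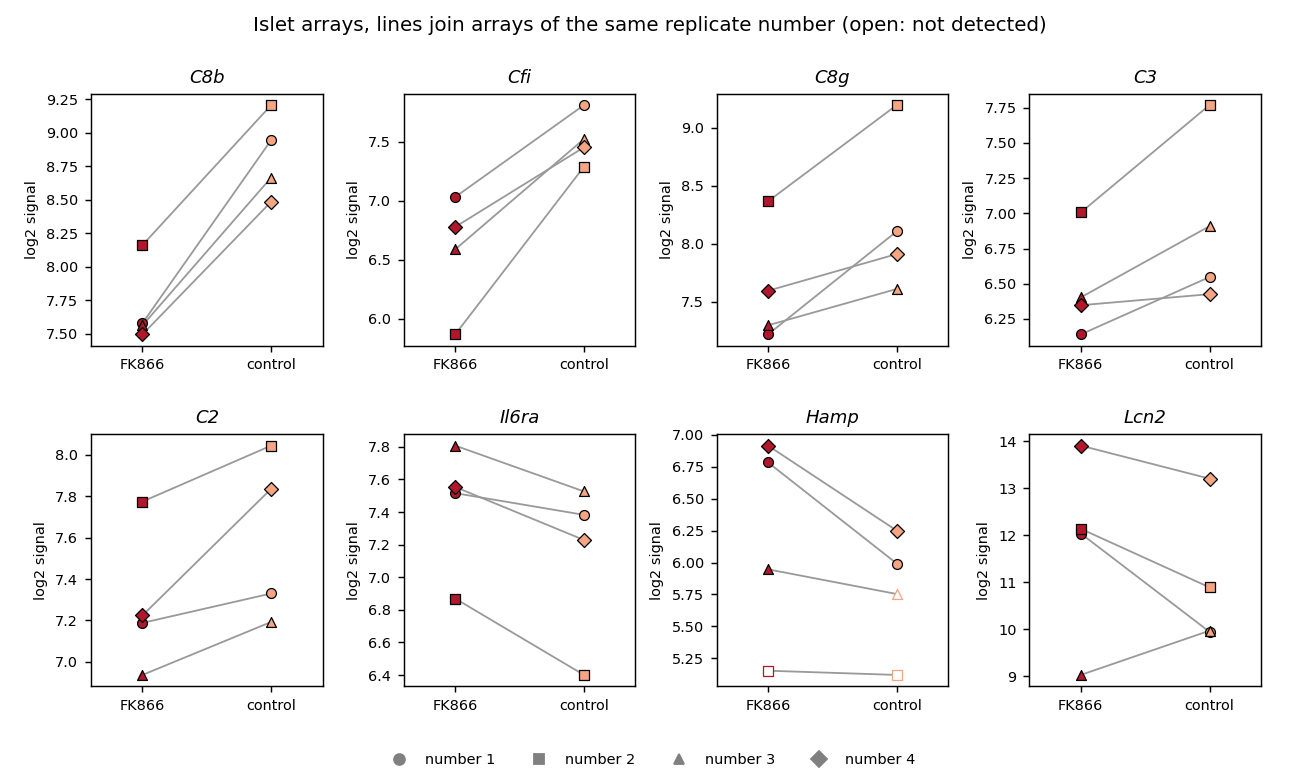
Normalized log2 signal (y axis) in islets for 8 members, with FK866 left and control right, and a line between arrays of the same number; open points were not detected. C8b and Cfi slope the same way in all 4 pairs with no overlap of the groups, C8g, C3 and C2 slope the same way with overlap, Il6ra and Hamp slope the other way, and Lcn2 spreads over several log2 units.

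The 2 hepatocyte markers and the 5 fibroblast and stellate cell markers that were tested in islets were lower with FK866, and none passed the threshold. Of these 2, Ttr is also an islet gene, called higher in control islets than in control hepatocytes. Of 12 hepatocyte markers, Apoa2 and Ttr were detected there and the other 10 on no islet array, among them Apoa1, Cps1, Cyp2e1 and Mup1. Apoa2, an apolipoprotein, had 7.15, 5.26, 6.35 and 6.72 in FK866-treated islets and 7.38, 6.53, 7.16 and 7.05 in control islets. Ttr, a thyroid hormone carrier that islets also make, had 14.90, 13.63, 14.72 and 14.45 in FK866-treated islets and 15.52, 14.57, 15.48 and 15.30 in control islets. Both were lower with FK866 in all 4 pairs, by -0.66 (SE 0.40) and -0.79 (SE 0.33), and neither passed the threshold. Before normalization, the summed signal of the 12 hepatocyte markers ran from 7447 to 27368 in FK866-treated islets and from 11475 to 47585 in control islets. Ttr was by far the brightest of them, so this sum says little of the others. Of 12 fibroblast and stellate cell markers, 5 were tested and all 5 were lower with FK866, at a median of -0.30, with 0 called and 2 at an unadjusted p under 0.05 with the block. The summed signal of all 12 before normalization was 711, 999, 897 and 1170 in FK866-treated islets and 960, 1419, 1749 and 1355 in control islets. This sum was lower with FK866 in all 4 pairs. The normalized mean of the 12 was 5.71, 6.45, 5.83 and 6.03 with FK866 and 5.75, 7.09, 6.18 and 6.03 in the control. It was not lower in the pair numbered 4. Acinar cell markers differed by array too. Of 8, the FK866-treated islet arrays detected 2, 0, 2 and 0 and the control islet arrays 1, 0, 7 and 0. The part of any of these markers in the changes of C8b and Cfi was not tested.

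FK866 at 200 nM in hepatocytes left the members near their control levels. Of 8554 genes tested, 0 were called (0%) with limma, and 147 (1.72%) had an unadjusted p under 0.05, none of them among the 34 members tested. With the pairs as a block, 0 genes were called, and 535 (6.25%) had an unadjusted p under 0.05, with Masp1, Hp and Hamp among them. The members' changes ran from -0.35 to 0.60, with a median of 0.02 against 0.00 over all genes tested, and 20 were higher and 14 lower. For 32 of the 34 the 95% interval lay within 1 log2 unit of 0, and for 19 within 0.5. No member had groups that did not overlap, which held for 1.08% of all genes.

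Masp1 had the largest change and the smallest p. Its FK866-treated hepatocytes had 8.55, 7.48, 7.33 and 7.45 and the controls 7.84, 6.65, 7.08 and 6.83, and the groups overlapped. Within pairs it changed by 0.71, 0.83, 0.25 and 0.62. The mean was 0.60 (SE 0.32), with an interval of -0.11 to 1.31 and limma adjusted p of 1 unpaired and 0.655 with the block. Hamp changed by -0.53, -0.44, -0.13 and -0.29 and Hp by -0.22, -0.19, -0.17 and -0.22, the 2 members lower in all 4 pairs, against 6.97% of all genes, and 6 members were higher in all 4, against 6.91%. Their means were -0.35 (SE 0.38) and -0.20 (SE 0.18), and the Hamp interval, -1.20 to 0.51, was with that of Masp1 the only 1 to reach past 1 log2 unit. Itih3, next to Masp1 in p, averaged 0.11 (SE 0.09).

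The central members hardly moved on average in hepatocytes. C3 changed by 0.01 with an interval of -0.25 to 0.27, Cp by -0.06 (-0.28 to 0.15) and Socs3 by 0.11 (-0.13 to 0.35). The inducible amyloids Saa1, Saa2 and Saa3 averaged 0.01, 0.07 and -0.04, and Lcn2 0.02. Saa1 moved both ways between pairs, by 0.25, 0.60, -0.33 and -0.46, so its mean is imprecise. C8b and Cfi, lower with FK866 in islets, averaged 0.01 (SE 0.20) and 0.04 (SE 0.16) in hepatocytes.

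**Figure D4:**
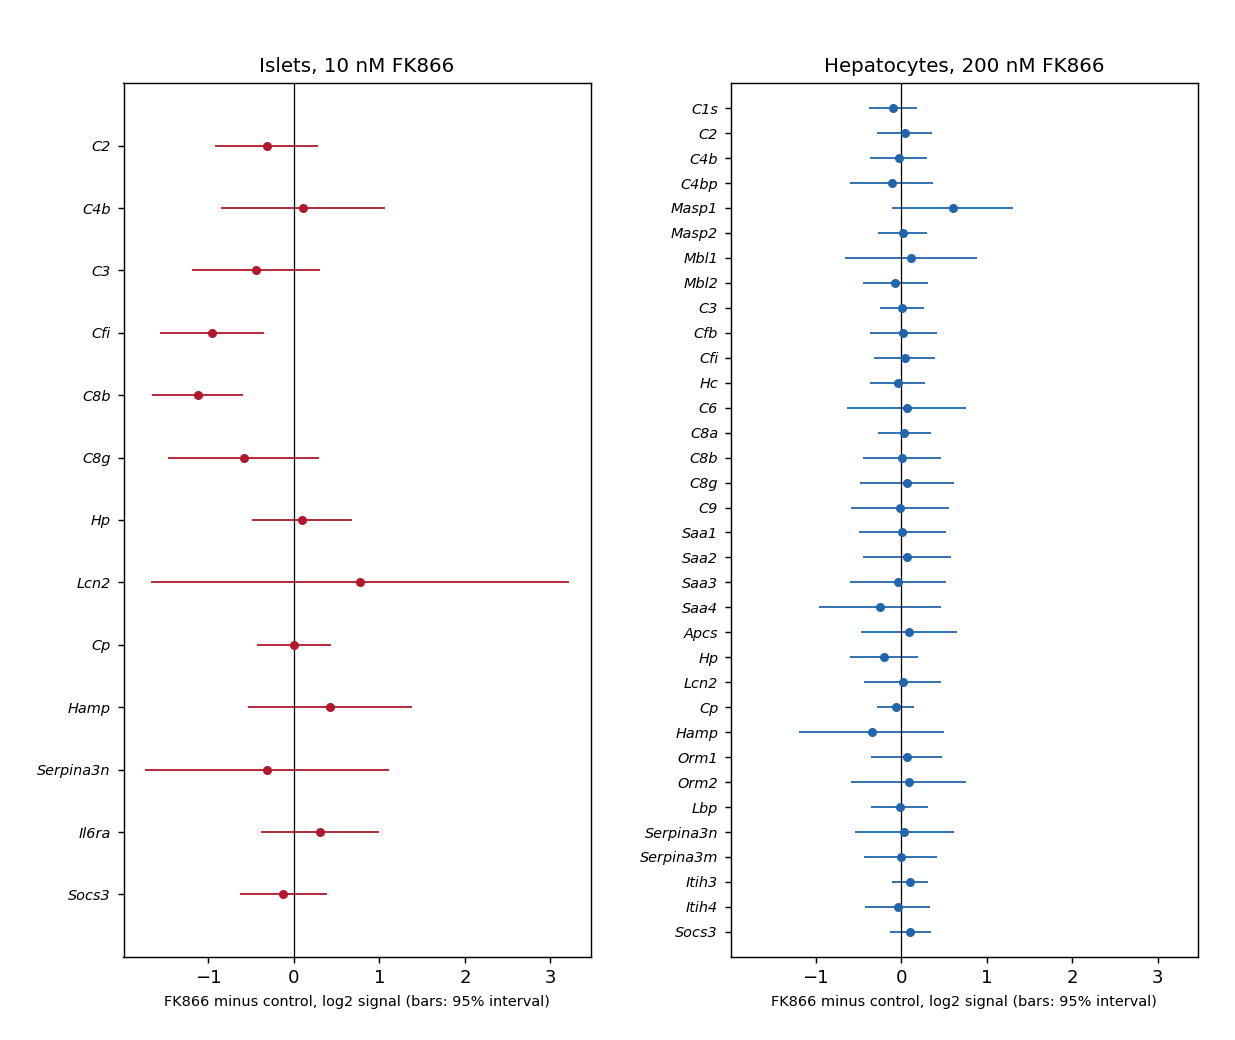
FK866 minus control change of log2 signal (x axis) for the members tested in islets (left, 13) and in hepatocytes (right, 34), with 95% intervals from the unpaired fit. In islets the C8b and Cfi intervals lie below 0 and that of Lcn2 is wide, while in hepatocytes every interval includes 0.

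The change in islets was set against that in hepatocytes by an interaction over all 4 groups, though the doses differ by tissue. No gene of 10059 was called (0%), and 180 (1.79%) had an unadjusted p under 0.05, with C8b and Cfi among them. With the pairs as a block 4 genes were called (0.0398%), and C8b was among them. The islet change of C8b was below its hepatocyte change by 1.14 on the log2 scale (difference -1.14 (SE 0.32)), with limma adjusted p of 1 unpaired and 0.0362 with the block. Cfi differed by -0.99 (SE 0.32), with 0.0724 with the block.

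Within each hepatocyte group the members shared an order of arrays, whatever the treatment. The array numbered 1 was the highest for 24 of 34 members with FK866 and for 23 in the control, against 22.7% and 25.7% of all genes detected on every array of the group. The array numbered 2 was the lowest for 26 members with FK866 and for 32 in the control, against 33.4% and 31.5% of all such genes. The members' median deviation from their group mean was 0.28 on array 1 and -0.28 on array 2 with FK866, and 0.25 and -0.40 in the control. That of all such genes was within 0.01 of 0, where quantile normalization tends to hold it. The mean of the 12 hepatocyte markers was also highest on array 1, at 9.45 with FK866 and 9.46 in the control, and lowest on array 2, at 9.10 and 9.06. The mean of 11 endothelial markers was higher on arrays 2 and 4 (7.85 and 7.86 with FK866, 7.75 and 7.98 in the control) than on arrays 1 and 3 (7.46 and 7.06, and 7.26 and 6.96). The part of the cell makeup in this order was not tested. Arrays of the same number were taken as pairs, so the order in 1 treatment is no independent repeat of that in the other. The order was noticed in these values and is given as a description.

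**Figure D5:**
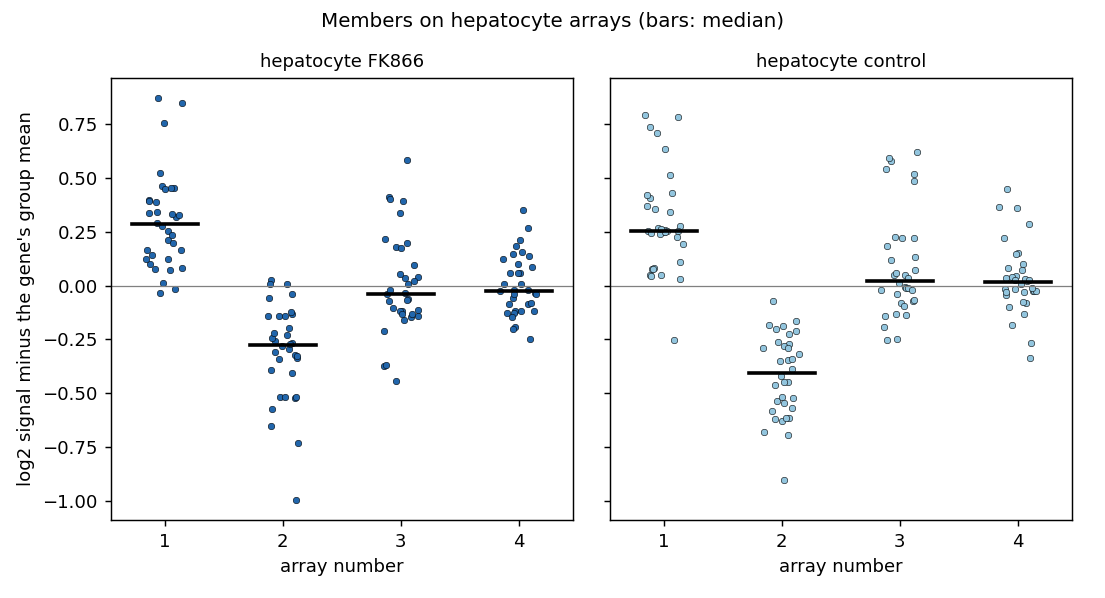
Deviation of each member's log2 signal from its mean in the group (y axis) on the 4 hepatocyte arrays of each treatment (x axis), for the 34 members detected on all 8 arrays; bars are medians. Array 1 lies above and array 2 below the others in both treatments.

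Genes around the members in the same pathways were taken from 4 further lists. Counts are given for genes detected on at least 4 arrays of each tissue, since the others had to differ. Of 8 such complement receptors, regulators and other components, 7 were called lower and 0 higher in control islets, against the 29.1% and 31.9% of all such genes given above. Cd59a, which blocks the pore and is among these 8, differed by -3.04 (SE 0.21). Vtn, vitronectin, was at least 87.7-fold lower, but it passed the filter through hepatocytes alone and so had to differ. The chains of C1q, a product of macrophages, passed the filter through islets alone. Their signals were higher there, among them C1qb by 4.44 (SE 0.39) and C1qc by 3.50 (SE 0.30), each detected on 1 of 4 control hepatocyte arrays. Macrophage markers were detected for 9 to 10 of 15 on islet arrays and 2 to 5 on hepatocyte arrays, and that list holds the C1q chains. Of 15 other acute phase genes tested, 10 passed through hepatocytes alone. Of the other 5, 3 were called lower and 2, the metallothioneins Mt1 and Mt2, higher in control islets. Hpx, hemopexin, detected on 2 of 4 control islet arrays, differed by -9.91 (SE 0.19), and Serpina1b, Fga and Itih2 were at least 627-fold, 173-fold and 68.6-fold lower. All of these are among the 10 that passed through hepatocytes alone, so they had to differ.

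Of 15 IL6, IL1 and TNF signal genes detected in both tissues, 5 were called lower and 1 higher in control islets. Genes outside these 15 that passed the filter through hepatocytes alone had to differ. Among them the chemokine Cxcl1, detected on 1 of 4 control islet arrays, differed by -7.76 (SE 0.38). The chemokine Ccl2, the oncostatin M receptor Osmr and the factor Cebpa, also among them, were at least 57.3-fold, 4.98-fold and 2.42-fold lower. Of 4 genes detected in both tissues that fall in the acute phase, 3 were called lower and Ttr higher in control islets. Trf, transferrin, which is among these 4 and was detected on 3 of 4 control islet arrays, differed by -9.11 (SE 0.21). Apoa1, Ahsg and F12 passed through hepatocytes alone, so they had to differ, and were at least 173-fold, 133-fold and 29.1-fold lower. Over the genes detected in both tissues, the median differences of the 4 lists were -1.62, -1.50, -0.60 and -4.12, against 0.04 over all 7514 such genes.

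No gene of these 4 lists was called under FK866 in either tissue. In islets the largest changes were Ttr, given above, and Rbp4, a retinol carrier, at 0.72 (SE 0.36), Crry, a membrane complement regulator, at 0.71 (SE 0.89), Cfp, properdin, at -0.41 (SE 0.81), Fgl1 at 0.37 (SE 0.40), and the receptor Lifr at -0.36 (SE 0.22). In hepatocytes they were Mt2 at -0.36 (SE 0.12), the zinc transporter Slc39a14 at -0.25 (SE 0.10), Rbp4 at -0.21 (SE 0.14), the feedback inhibitor Socs2 at 0.20 (SE 0.11) and Cfp at -0.13 (SE 0.14).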

How the data were processed

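RNA of 16 samples, 4 in each of 4 groups, was measured on Illumina bead arrays. The authors deposited a linear intensity per probe, from which by its values a background had been subtracted and which was not normalized between arrays, and beside it a deposited detection p-value. The deposited score of each gene symbol is, by its values, the mean log10 signal of its probes, floored at 1, then centred and scaled within each array. Which software and annotation the authors used is not stated in the labels. The design expected a normalized level in that table, so the scores served for names and as an alternative.

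Probes were named where their log10 signals gave a symbol's scores within 1e-07, which matched 17502 of 18111 symbols. Over 5015 rows of the deposited scores the islet columns stand 1 row off, and they were moved before use. Of the members, 36 symbols were current in RefSeq and C1s was a synonym. Near copies and overlapping genes may share probe signal, and this was not checked.

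Values were computed with R 4.3.3 and limma 3.58.1, and names, promoters and figures with Python 3.11.15, pandas 2.3.3 and matplotlib 3.10.9. The function neqc, with an offset of 16, corrected the background and quantile normalized the 16 arrays together. The brightest probe stood for a gene. FK866 contrasts used the 8 arrays of a tissue and genes detected on at least 4 of them, and tissue contrasts and the interaction used all 16 arrays. P-values were adjusted by Benjamini-Hochberg over all genes tested, with a threshold of 0.05. An at-least fold is the mean of the detected group against, per array of the other group, the higher of the gene's own signal and the lowest detected signal. The scripts were tested on simulated data.

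Same-numbered FK866 and control arrays deviated together across genes, at correlations of 0.383 to 0.611 in hepatocytes and 0.532 to 0.928 in islets, against -0.365 to 0.0751 and -0.850 to 0.671 for different numbers. In islets these ranges overlapped, and FK866 array 3 correlated more with control arrays 1 and 4 than with control array 3. The numbers were taken as pairs from this check, not from the labels. Across tissues they did not pair (-0.106 to 0.0798).

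The members, gene lists and motifs were chosen with earlier results of these data known. Every member is named by role. Values per array are given for members called under FK866, for up to 3 per role with the largest tissue difference in control cells, for members detected on at least 4 islet arrays and for the 3 smallest p-values per tissue under FK866. From each list up to 4 called genes, or up to 2 otherwise, are named. Alternatives covered normalization per tissue, the deposited scores, floored signals, variance estimation, probe choice, detection filters, the replicate block and leaving out arrays. The number of arrays limits the precision.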

Additional observations from a re-analysis of the deposited data

Results flagged for a closer look

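In 7 of the 100 groups of 4 arrays examined for a member, 1 array stood farther from the other 3 than Dixon's limit for 4 values, where chance alone gives about 5%. In FK866-treated hepatocytes, C4b was high on array 1, at 11.80 against 11.26 to 11.28 on the others, and so was Masp1, at 8.55 against 7.33 to 7.48. Hamp was low on array 2 of that group, at 11.34 against 12.54 to 12.79. In control hepatocytes, Serpina3n was low on array 2, at 9.23 against 10.04 to 10.20. In FK866-treated islets, C8b was high on array 2, at 8.16 against 7.49 to 7.58, which is the treated array nearest to the controls. Before normalization the C8b signal on array 2 was 164, against 172 to 203 on the others. Hp was low on array 1 of that group, at 5.65 and undetected, against 6.16 to 6.24. In control islets, Apcs was high on array 4, at 6.05 and the only detected array, against 5.60 to 5.64.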

How the results depend on the processing

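The tissue contrasts called 33 members lower and 1 higher in islets under each alternative run, except that 34 were called lower in FK866-treated cells without both islet arrays numbered 2. Under FK866 in hepatocytes no member was called under any alternative, and over all genes the count of 0 became 2 with the deposited scores and 1 with the scores and the replicate block. In islets the replicate block called 4 genes and 1 member, C8b (adjusted p 0.0466). Further combinations with the block, chosen after seeing the data, called 21 genes with a trended and robust variance, 4 with the mean of all probes and 7 with a detection p under 0.01, each with C8b as the 1 member (adjusted p 0.0273, 0.0307 and 0.0336). With the block and normalization per tissue 1 gene was called and C8b was not (0.0506), nor was it with floored signals (0.0620), no detection filter (0.0907) or deposited scores (0.348). With the block and a pair left out, 0 to 1 genes were called and no member. The interaction called 4 genes and 1 member, C8b, with the replicate block, 3 genes without both islet arrays numbered 2, and 0 to 1 genes when 1 array was left out. The other alternatives kept every count on its side. No called member changed direction. The block kept all other calls of members, though for the tissue contrasts it has little meaning, since the numbers did not pair across tissues. The cause of these shifts was not tested. Signals near background limit what can be said of the members undetected in islets, and 4 arrays a group limit the rest.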
